A study of Mus musculus with 12 samples.

Results

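Granzymes, perforin and Nkg7 are among the proteins of the lytic granule. Here 9 of their genes were followed: Gzma, Gzmb, Gzmc, Gzmd, Gzme, Gzmf, Gzmk, Prf1 and Nkg7. They were taken by symbol from the 45703 genes of the 12 libraries, and each of the 9 symbols was found. The libraries came from mouse CD4 T cells of the C57BL/6 background, polarized from naive cells to T helper 17 (Th17) or T helper 1 (Th1) cells over 3 days in vitro with cytokines and antibodies to CD3 and CD28. In each lineage 3 libraries came from wild-type cells and 3 from cells of the genotype Slc2a3-fl/fl Cd4-cre, in which Slc2a3, the gene of the glucose transporter GLUT3, is deleted by a Cre recombinase driven by the Cd4 promoter. The age and number of the mice are not given in the sources used here, and nothing says that replicates came from separate animals or cultures. The p-values therefore refer to the variation among these libraries alone, part of which may be technical.

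Cytotoxic lymphocytes store granzymes, a family of serine proteases, in granules together with perforin. On contact with a target cell the granule content is released, perforin forms pores in the target membrane, and granzymes enter and cleave proteins inside the cell. CD8 T cells and NK cells are the main users of this machinery, while Th1 cells can take up part of it and Th17 cells are not known for it.

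Granzyme B cleaves after aspartate and can activate caspases, and granzymes A and K cleave after basic residues. Granzymes C, D, E and F belong to a rodent group of close relatives encoded next to Gzmb on chromosome 14. Prf1 encodes perforin, and Nkg7 encodes a granule membrane protein that takes part in granule release.

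The cluster of close relatives is visible in the promoters. The 250 bases before the start site of Gzmb, Gzmc and Gzmf are shown because Gzmb was the most abundant member, Gzmc had the largest rise in Th17 cells on the log2(TPM + 1) scale and Gzmf belongs to the same family as Gzmc. That of Nkg7 is shown because it was the member whose response to GLUT3 loss differed most between lineages. The sequences are RefSeq's, build GRCm38.p6, written 5′ to 3′ on the strand of the gene, at chr14:56262335-56262584, chr14:56234658-56234907 and chr14:56211408-56211657 (minus strand) and chr7:43436888-43437137 (plus strand). Capitals mark matches on either strand to the RUNX core TGTGGT (its reverse complement reads ACCACA), the cyclic AMP response element-like TGACGTNA and the AP-1 motif TGANTCA.
Gzmb: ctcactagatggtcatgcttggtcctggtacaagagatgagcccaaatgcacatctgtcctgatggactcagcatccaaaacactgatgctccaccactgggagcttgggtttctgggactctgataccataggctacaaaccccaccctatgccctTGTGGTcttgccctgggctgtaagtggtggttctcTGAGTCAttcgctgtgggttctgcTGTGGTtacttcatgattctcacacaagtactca
Gzmc: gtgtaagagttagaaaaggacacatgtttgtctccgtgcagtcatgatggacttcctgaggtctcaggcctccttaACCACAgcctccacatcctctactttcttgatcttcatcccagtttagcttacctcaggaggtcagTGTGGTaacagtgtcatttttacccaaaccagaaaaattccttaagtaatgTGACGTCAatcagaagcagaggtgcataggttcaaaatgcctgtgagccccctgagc
Gzmf: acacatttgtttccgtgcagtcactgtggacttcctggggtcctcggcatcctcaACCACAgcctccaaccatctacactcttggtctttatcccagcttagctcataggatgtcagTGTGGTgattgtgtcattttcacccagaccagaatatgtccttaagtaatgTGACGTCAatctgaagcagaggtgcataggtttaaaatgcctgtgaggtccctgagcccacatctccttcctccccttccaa
Nkg7: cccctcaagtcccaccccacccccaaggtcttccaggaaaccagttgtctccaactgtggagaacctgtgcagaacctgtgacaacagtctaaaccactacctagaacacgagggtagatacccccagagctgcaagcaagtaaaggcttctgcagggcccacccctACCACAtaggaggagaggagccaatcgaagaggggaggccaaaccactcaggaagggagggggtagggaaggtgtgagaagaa

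The Gzmc start site used by RefSeq lies 6.99 kb inside the gene span of the deposited tables, and that of Prf1 0.09 kb inside. The promoters of Gzmc, Gzmd, Gzme, Gzmf and Gzmg, a further gene of the cluster, were aligned in pairs. The windows were the 300 bases that also include the first 50 of the gene. Of the 275 to 299 bases aligned per pair, 86.1% to 94.0% were identical. The RUNX core was matched 2 times each in Gzmb, Gzmc, Gzmd, Gzme and Gzmf and 1 time each in Gzma, Prf1 and Nkg7, and it was not matched in Gzmk. Of 32851 promoters of the same length, 16.8% held that motif. The cyclic AMP response element-like motif was matched in Gzmc and Gzmf, 57 and 82 bases before the start site, and in 2.93% of promoters. The AP-1 motif was matched in Gzmb alone among the 9, 58 bases before its start, and in 7.81% of promoters. Neither motif overlapped a RUNX match in the sequences shown. Matches were also searched for a T-box core, GTGTGA, and a STAT family motif, TTCNNNGAA, held by 14.5% and 8.3% of promoters and not in capitals above. The T-box core was matched 1 time each in Gzmb and Nkg7, 15 and 12 bases before the start, and 2 times in Gzmk. The STAT family motif was matched before the start of Nkg7 and in the first bases of the Gzmb gene, and in none of the other 7. The motifs were chosen after the sequences had been seen, and a match describes letters and not binding.

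Slc2a3 itself checks the labels. Its level ranged from 44.6 to 379 TPM (reads per exon length, with the sum over genes set equal in all libraries) in wild-type Th17 and from 3.30 to 18.7 in GLUT3-deficient Th17 libraries. In Th1 cells it ranged from 64.7 to 398 and from 4.49 to 7.97 TPM, so the genotypes did not overlap in either lineage. Libraries held 16596283 to 28496606 reads, recovered from TPM and exon length. Th17 GLUT3-deficient replicate 2 stood apart, with a median absolute log2 difference of 0.62 from the others of its group against 0.14 to 0.42 for the remaining libraries.

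Gzmb was by far the most abundant granzyme. Gzmb (chr14:56258836-56262334) was measured at 168, 108 and 101 TPM in the wild-type Th17 libraries, in the order of replicates 1, 2 and 3, and at 904, 1386 and 1014 TPM in the GLUT3-deficient ones. In wild-type Th1 libraries it reached 2210, 2464 and 2044 TPM and in GLUT3-deficient ones at 6204, 6781 and 4412 TPM. The 4 groups did not overlap, and the level increased from wild-type Th17 through GLUT3-deficient Th17 and wild-type Th1 to GLUT3-deficient Th1 cells. The means were 126 ± 36.6, 1101 ± 252, 2240 ± 212 and 5799 ± 1235 TPM (SD, n = 3). Among all genes Gzmb ranked 1118 to 1957 by TPM in wild-type Th17 libraries, 58 to 160 without GLUT3, 37 to 51 in wild-type Th1 libraries and 9 to 16 in GLUT3-deficient Th1 libraries.

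Gzma and Gzmk were far lower than Gzmb. Gzma (chr13:113093824-113100981) was at 7.33, 6.59 and 4.11 TPM in wild-type and 28.1, 33.1 and 41.7 TPM in GLUT3-deficient Th17 libraries. The Th1 values were 11.7, 12.7 and 9.88 TPM with GLUT3 and 41.7, 46.6 and 25.7 TPM without it. The genotypes were apart in both lineages, while the GLUT3-deficient groups of the 2 lineages overlapped. Gzma lies within Cdc20b on the opposite strand, and these libraries do not mark strand, but Cdc20b reached at most 0.124 TPM. Gzmk (chr13:113171630-113180965), its neighbour, ranged from 0 to 2.54 TPM over the 12 libraries, with 0 to 28 reads, and all 4 groups overlapped with the next in order.

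Gzmc levels followed genotype more than lineage. Gzmc (chr14:56231397-56241647) was measured at 21.3, 15.7 and 21.0 TPM in wild-type Th17 and 279, 284 and 272 TPM in GLUT3-deficient Th17 libraries. The Th1 libraries held 32.5, 23.8 and 34.1 TPM in wild type and 331, 401 and 263 TPM without GLUT3. The wild-type lineages were apart by a factor of 1.56, the GLUT3-deficient lineages overlapped, and every GLUT3-deficient library was above every wild-type library of either lineage. No 75-base window, the length of a read, of the Gzmc or Gzmb transcript occurs in a transcript of another gene.

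Gzmd, Gzme and Gzmf were low and reached double digits only in Th1 cells without GLUT3. Gzmd (chr14:56129556-56132603) had 0 reads in each wild-type Th17 library, 2.13 to 3.24 TPM in GLUT3-deficient Th17, 0.63 to 2.09 TPM in wild-type Th1 and 12.1 to 18.8 TPM in GLUT3-deficient Th1 libraries. Gzme (chr14:56117619-56120625) ranged from 0 to 0.19, 1.38 to 2.61, 0.11 to 1.84 and 12.6 to 14.8 TPM in the same order of groups. Gzmf (chr14:56205263-56211407) ranged from 0 to 0.26, 1.44 to 2.02, 2.52 to 2.64 and 16.1 to 22.2 TPM.
The GLUT3-deficient Th1 group lay above the other groups for each of the 3 genes, and for Gzme the wild-type Th1 range overlapped both Th17 groups. Of the 75-base windows of their transcripts, 5.73% for Gzmd, 4.75% for Gzme and 9.47% for Gzmf occur in another gene, so a small part of their reads could not be told apart.

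Prf1 (chr10:61297751-61304684) was modest in all groups. The wild-type Th17 libraries had 4.10, 2.85 and 2.27 TPM and the GLUT3-deficient ones 12.4, 41.1 and 11.4 TPM. Among Th1 libraries the values were 17.4, 18.4 and 11.4 TPM in wild type and 42.7, 48.5 and 43.2 TPM without GLUT3. The genotypes did not overlap in either lineage, but replicate 2 of the GLUT3-deficient Th17 cells was more than 3 times as high as the other replicates of its group.

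Nkg7 (chr7:43437138-43438246) was the second most abundant of the 9 genes in Th1 cells. The Th17 values were 28.5, 24.0 and 19.3 TPM in wild-type and 117, 208 and 146 TPM in GLUT3-deficient libraries. The Th1 libraries with GLUT3 had 882, 1033 and 991 TPM, and those without it 661, 861 and 641 TPM. Nkg7 thus decreased from wild-type to GLUT3-deficient Th1 and on to GLUT3-deficient and wild-type Th17 cells, with no overlap between neighbours. It was the only one of the 5 members above 2 TPM in every library (Gzma, Gzmb, Gzmc, Prf1 and Nkg7) that was highest in a wild-type group.

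**Figure D1:**
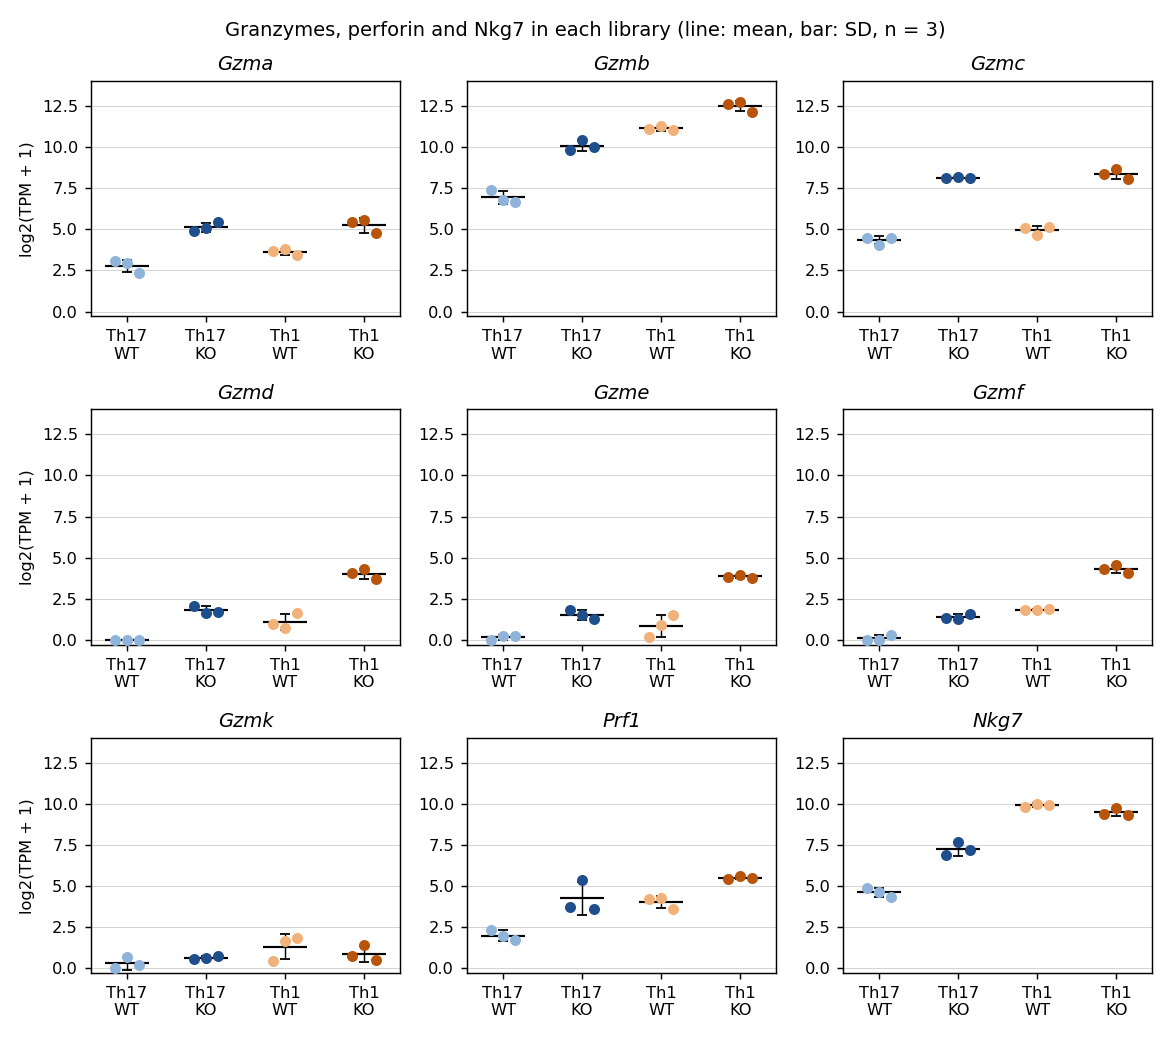
Level of each of the 9 genes in each library, as log2(TPM + 1), in the 4 groups of 3 libraries (WT: wild type, KO: GLUT3-deficient, points: libraries, line: mean, bar: SD). Gzmb rose through the 4 groups from a mean of 126 to 5799 TPM, Gzmc split by genotype, Nkg7 was highest in wild-type Th1 cells, and Gzmk stayed at or under 2.54 TPM.

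The first comparison asked how GLUT3 loss changes these genes in Th17 cells. Gzmc rose 14.4-fold and Gzmb 8.77-fold in mean TPM, Prf1 rose 7.03-fold, Nkg7 6.58-fold and Gzma 5.71-fold. Limma was run on log2(TPM + 1) for the 13823 genes that reached 1 TPM in 3 or more of the 6 libraries, with Benjamini-Hochberg adjustment and a threshold of 0.05. On that scale Gzmc rose by 3.79 ± 0.20 (SE, n = 3 per group, adjusted p = 0.000711) and Gzmb by 3.14 ± 0.27 (adjusted p = 0.00174). Nkg7 rose by 2.64 ± 0.27 (adjusted p = 0.00378), Gzma by 2.34 ± 0.29 (adjusted p = 0.00734) and Prf1 by 2.25 ± 0.50 (adjusted p = 0.0417). In bulk RNA, a larger share of cells that make a transcript and more transcript per cell cannot be told apart.

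The low granzymes of the cluster also rose in Th17 cells without GLUT3, from levels of few reads. Gzmd had 88 reads over the GLUT3-deficient and 0 over the wild-type libraries, at least 9.30-fold higher when 3 reads per wild-type library are taken as the limit of detection. Gzme had 63 against 4 reads, a ratio of 15.3 (95% interval 5.71 to 58.1, which covers counting error only), and Gzmf 56 against 3, a ratio of 18.2 (5.91 to 90.8). Their limma values were 1.81 (adjusted p = 0.00441), 1.38 (adjusted p = 0.0144) and 1.30 (adjusted p = 0.0126), which understate changes of low genes. These 3 genes entered the test only through the GLUT3-deficient libraries, so their calls add no support. Gzmk was below 1 TPM in each Th17 library and was not tested.

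Without these 3, limma called 5 members higher, and with them 8 members higher and 0 lower (0 lower also at an unadjusted p under 0.05 and with voom on recovered reads), where 4.6% of all tested genes were called higher and 2.7% lower. The genotypes did not overlap in the 5, nor in the 3 low genes, which held for 18.5% of tested genes in the upward direction. Gzma, Gzmb, Gzmc and Nkg7 stayed called when any library was left out. The Gzme call was lost without any 1 of the wild-type libraries (adjusted p of 0.0548 to 0.0825) and the Gzmf call without wild-type replicate 2 or 3 (0.081 and 0.0545). Leaving out any 1 of the other 5 libraries ended the Prf1 call (adjusted p of 0.0601 to 0.176), whereas without GLUT3-deficient replicate 2 Prf1 rose by 1.68 (adjusted p = 0.00539). It was also lost with a pseudocount of 5 (adjusted p = 0.0746) and without the filter (0.0904).

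In Th1 cells without GLUT3, 6 granzyme genes and Prf1 rose, and Nkg7 did not. Gzmc rose 11.01-fold in mean TPM, Gzma 3.33-fold, Prf1 2.85-fold and Gzmb 2.59-fold. On the log2 scale Gzmc rose by 3.41 ± 0.20 (limma, n = 3 per group, adjusted p = 3.23e-05), Gzma by 1.61 ± 0.23 (adjusted p = 0.00117), Prf1 by 1.48 ± 0.20 (adjusted p = 0.000845) and Gzmb by 1.35 ± 0.17 (adjusted p = 0.00074). The low relatives rose by 2.92 for Gzmd, 3.02 for Gzme and 2.48 for Gzmf, with limma adjusted p-values of 0.000162, 0.000274 and 4.97e-05. In mean TPM these 3 genes rose 12.63-fold, 14.55-fold and 7.41-fold. Of these, Gzmd and Gzme reached 1 TPM in 1 wild-type library each and Gzmf in all 3. Gzmd and Gzme therefore passed the filter only through the GLUT3-deficient libraries, and their calls add no support.

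Nkg7 differed by -0.44 ± 0.15 in Th1 cells and missed the threshold (limma, n = 3 per group, adjusted p = 0.0572), although its highest GLUT3-deficient library was below its lowest wild-type library. It was called lower in a fit with the replicate number as a block (adjusted p = 0.0493), with voom on recovered reads (adjusted p = 0.0335), and when wild-type replicate 1 (0.0301) or the second GLUT3-deficient replicate (0.0448) was left out. Gzmk differed by -0.42 ± 0.38 (adjusted p = 0.437), its genotypes overlapped, and it was called lower (-0.85, adjusted p = 0.0408) when wild-type replicate 1 was left out. Thus limma called 5 members higher without Gzmd and Gzme, or 7 with them, and 0 lower (Nkg7 alone at an unadjusted p under 0.05), where 17.6% of 13487 tested genes were called higher and 13.7% lower. The genotypes were apart in the upward direction for these 7 members and for 26.3% of tested genes, and in the downward direction for Nkg7 and for 20.8%.

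**Figure D2:**
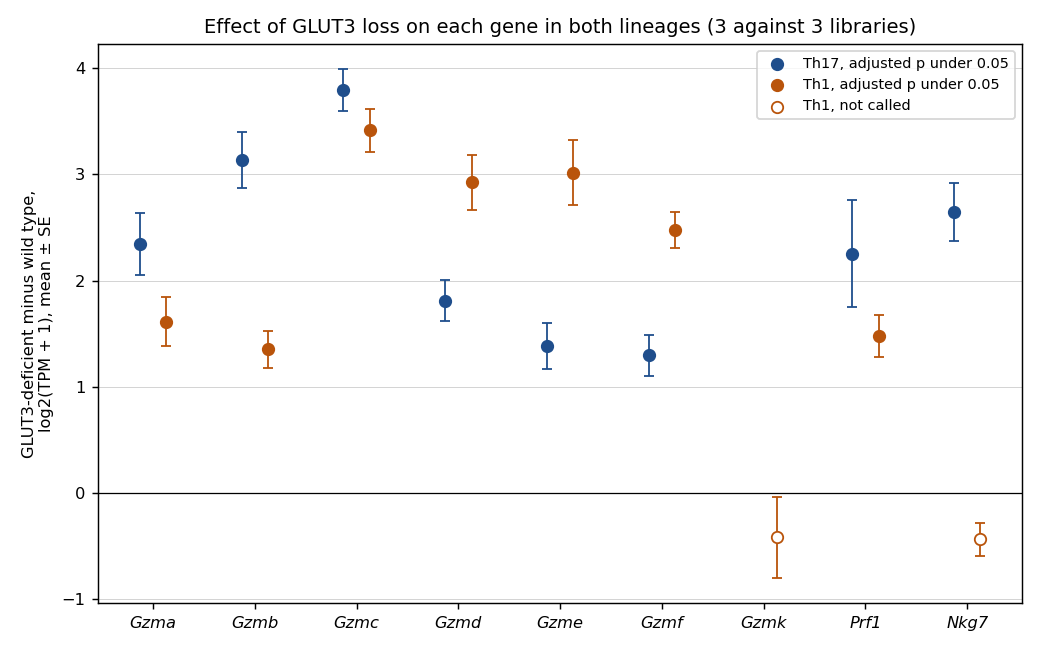
Effect of GLUT3 loss on each gene in Th17 (blue) and Th1 cells (orange), as the difference of log2(TPM + 1) with its SE, n = 3 against 3 libraries; filled points passed an adjusted p of 0.05. On this scale, which understates changes of low genes, Gzmc had the largest value in both lineages (3.79 and 3.41). Nkg7 stood at 2.64 in Th17 and -0.44 in Th1, and Gzmk was not tested in Th17.

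Whether the effect of GLUT3 loss differed between lineages was tested as an interaction over all 12 libraries. TPM is scaled within each library, so the deposited tables of the 2 lineages share a scale. The Nkg7 effect was larger in Th17 by 3.08 ± 0.31 (limma, adjusted p = 0.00103) and that of Gzmb by 1.78 ± 0.33 (adjusted p = 0.0346). These 2 members were called in that direction, beside 0.35% of 14579 tested genes. The Nkg7 call held with any library left out (adjusted p of 0.000389 to 0.00752). The Gzmb call was kept when replicate 1 of the wild-type or replicate 2 of the GLUT3-deficient Th17 cells was left out, and lost when any of the other 10 libraries was (values of 1.60 to 2.01 over the 12, adjusted p of up to 0.119). It was also lost with a pseudocount of 0.1 (adjusted p = 0.0519), without the filter (0.0765) and with median-of-ratios scaling (0.0616).

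For Gzmc the effects differed by 0.38 ± 0.28 (adjusted p = 1.00), for Gzma by 0.73 ± 0.38 (adjusted p = 0.897) and for Prf1 by 0.77 ± 0.57 (adjusted p = 1.00), which does not show that they were equal. Gzmd, Gzme and Gzmf had larger values in Th1, by -1.12, -1.63 and -1.18, and limma called none of them (adjusted p of 0.387, 0.162 and 0.105), beside 0.288% of genes called in that direction. All 3 were under an unadjusted p of 0.05, and voom on recovered reads called 0. With a pseudocount of 5 in place of 1 these 3 were called, whereas Gzmd and Gzmf changed sign with a pseudocount of 0.1 (1.01 and 0.68) and with voom (2.04 and 1.35). With 0 to 4 reads over the wild-type Th17 libraries, the lineage in which they responded more could not be settled.

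The lineages were then compared within each genotype. In wild type, Th17 cells had lower Nkg7 (-5.30 ± 0.22, limma, adjusted p = 9.56e-08), Gzmb (-4.18 ± 0.24, adjusted p = 1.12e-06), Prf1 (-2.04 ± 0.40, adjusted p = 0.0129), Gzmf (-1.73 ± 0.20, adjusted p = 0.000279) and Gzmd (-1.11 ± 0.26, adjusted p = 0.0348) than Th1 cells. Gzma (-0.85 ± 0.27, adjusted p = 0.13), Gzmc (-0.61 ± 0.20, adjusted p = 0.147), Gzme and Gzmk were not called. Thus limma called 5 members lower and 0 higher (0 higher also at an unadjusted p under 0.05 and with voom), where 1.78% of tested genes were called lower and 1.85% higher. Median-of-ratios scaling moved the split over all genes from 270 higher and 259 lower to 217 and 366, and the median of all genes from 0.14 to -0.0028. Every Th17 library was below every Th1 library for 7 members, Gzma and Gzmc included, and for 7.89% of tested genes. The Gzmd call was lost with the replicate block (adjusted p = 0.0575), with a pseudocount of 5 (0.324), without the filter (0.0771) and without any wild-type library except Th1 replicate 2, or without GLUT3-deficient Th1 replicate 1 (0.0604 to 0.146). That of Prf1 was lost with a pseudocount of 5 (0.0552), without wild-type Th17 replicate 2 or 3 (0.0584 and 0.0647) and without wild-type Th1 replicate 1 or 2 (0.0558 and 0.063). Gzmk was called lower (-1.45, adjusted p = 0.0254) without wild-type Th1 replicate 1.

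Without GLUT3 the lineages were closer in Gzmb and Nkg7, the members with a called interaction. Th17 cells had lower Gzmf (-2.91 ± 0.20, limma, adjusted p = 5.13e-06), Gzmb (-2.40 ± 0.24, adjusted p = 6.43e-05), Gzme (-2.32 ± 0.30, adjusted p = 0.000488), Gzmd (-2.22 ± 0.26, adjusted p = 0.000229) and Nkg7 (-2.22 ± 0.22, adjusted p = 6.7e-05). Limma called these 5 lower and 0 higher (0 higher also at an unadjusted p under 0.05 and with voom), where 2.56% of tested genes were called lower and 3.35% higher. For 6 members, Prf1 included, every Th17 library was below every Th1 library, as for 10.8% of tested genes. With median-of-ratios scaling the split over all genes moved from 488 higher and 373 lower to 470 and 564. Gzma (-0.12 ± 0.27, adjusted p = 0.848) and Gzmc (-0.23 ± 0.20, adjusted p = 0.544) were not called and their ranges overlapped. Prf1 was not called (-1.26 ± 0.40, adjusted p = 0.0978), but it was without GLUT3-deficient Th17 replicate 2 (-1.83, adjusted p = 0.000398), with median-of-ratios scaling (adjusted p = 0.0221) and with voom (adjusted p = 0.0151).

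The makeup of the granzyme transcripts shifted along with their amount. The summed TPM of the 7 granzyme members was 0.0151% ± 0.00389 of all TPM in wild-type Th17, 0.142% ± 0.0256 in GLUT3-deficient Th17, 0.229% ± 0.0206 in wild-type Th1 and 0.622% ± 0.132 in GLUT3-deficient Th1 cells (SD, n = 3). Gzmb made up 97.5% to 98.3% of that sum in wild-type Th1 and 93.0% to 93.6% in GLUT3-deficient Th1 libraries, and Gzmc 0.948% to 1.63% and 5.00% to 5.54%. The Gzmb to Gzmc ratio therefore fell from 77.2 ± 23.3 to 17.5 ± 1.09 in Th1 cells, with no overlap.

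In Th17 cells Gzmc was a larger part of the granzyme transcripts in both genotypes. The Gzmb to Gzmc ratio was 7.88, 6.89 and 4.80 in wild-type and 3.25, 4.87 and 3.73 in GLUT3-deficient libraries, 2 ranges that overlapped. Gzmb relative to Nkg7 was 2.06 to 2.51 in wild-type Th1 libraries and 6.89 to 9.38 in GLUT3-deficient ones, while the Th17 ratios ran from 4.52 to 5.87 and from 6.65 to 7.72. Gzmb relative to Prf1 was 33.7 in GLUT3-deficient Th17 replicate 2, against 73.1 and 89.3 in replicates 1 and 3. These ratios were not tested.

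**Figure D3:**
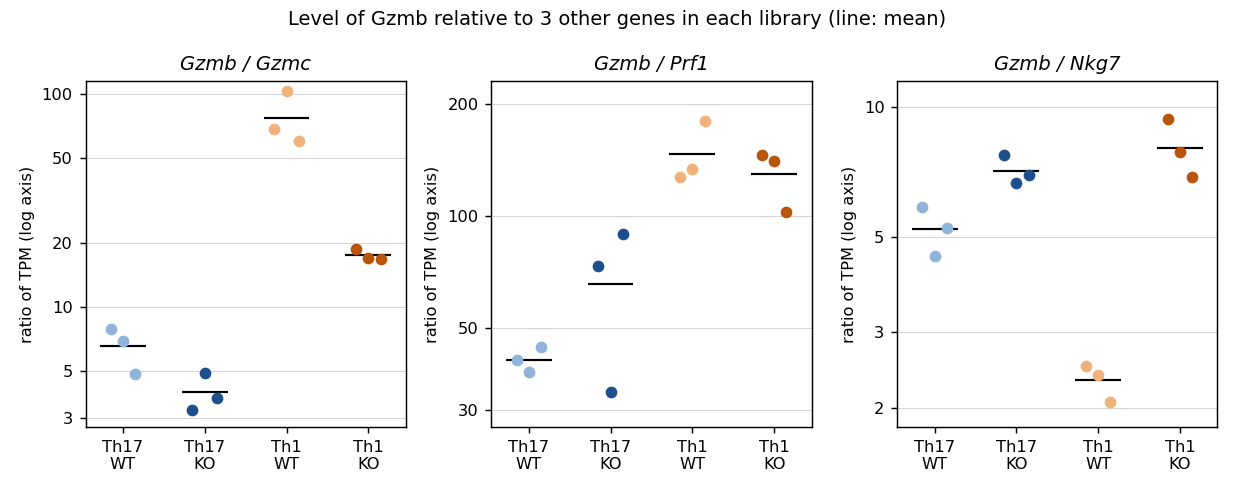
Ratio of the TPM of Gzmb to that of Gzmc, Prf1 and Nkg7 in each library on log axes (line: mean of 3 libraries). The Gzmb to Gzmc ratio was 59.9 to 104 in wild-type and 16.8 to 18.7 in GLUT3-deficient Th1 libraries, and the Gzmb to Nkg7 ratio was lowest in wild-type Th1 cells.

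In both GLUT3-deficient groups the mean level along the chromosome 14 cluster fell with distance from Gzmb and then rose again. In wild-type libraries Gzmd and Gzme, at the far end, stayed at or under 2.09 and 1.84 TPM. Gzmc starts 20.7 kb and Gzmf 50.9 kb from Gzmb, and Gzmn, at 87.7 kb, had reads only in GLUT3-deficient Th1 libraries, 8 in all. Beyond it, Gzmg, Gzmd and Gzme start 103, 130 and 142 kb away. Gzmg averaged 0.151 ± 0.175 TPM in wild-type and 5.28 ± 2.47 TPM in GLUT3-deficient Th1 libraries, with 4 against 176 reads, and it was called higher (2.36 ± 0.31, limma, adjusted p = 0.000845), but it passed the filter only through the GLUT3-deficient libraries, so the call adds no support. Gzmm, the granzyme gene of another locus, stayed under 0.534 TPM in each library and was not tested. Gzmg was the only 1 of these 3 further granzyme genes to be tested in Th1 cells, and none was tested in Th17 cells.

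The genes beyond Gzme are mast cell and neutrophil proteases. Ctsg, the gene of cathepsin G, starts 160 kb from Gzmb and had 0 TPM in all wild-type libraries, 2.10, 4.23 and 0.890 TPM in GLUT3-deficient Th17 and 0.258, 3.09 and 0.582 TPM in GLUT3-deficient Th1 libraries. Mcpt8, a basophil protease gene 177 kb away, rose from 0.800 ± 0.307 to 10.7 ± 7.19 TPM in Th17 (limma, adjusted p = 0.0185) and from 0.810 ± 0.634 to 8.78 ± 7.27 TPM in Th1 cells (adjusted p = 0.00675). Both were highest in replicate 2 of each GLUT3-deficient group. Of the 9 mast cell and basophil markers, Cpa3, Fcer1a and Mcpt8 were tested. These 3 gave 2 calls in Th17 and 3 in Th1, beside 4.6% and 17.6% of all tested genes called higher. Cpa3 and Fcer1a were below 1 TPM in all wild-type libraries, and Mcpt8 in part of them. All 3 passed the filter only through the GLUT3-deficient libraries, so these calls add no support. The 9 markers summed to 1.33 to 2.76 TPM in wild-type and 12.8 to 90.6 TPM in GLUT3-deficient Th17 libraries. Further along, Mcpt4, Mcpt2, Mcpt9 and Cma2 stayed at or under 0.147 TPM, Mcpt1 at or under 0.567 and Cma1 at or under 0.708 TPM, and on the other side of Gzmb, Atp12a did not exceed 0.0275 TPM.

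**Figure D4:**
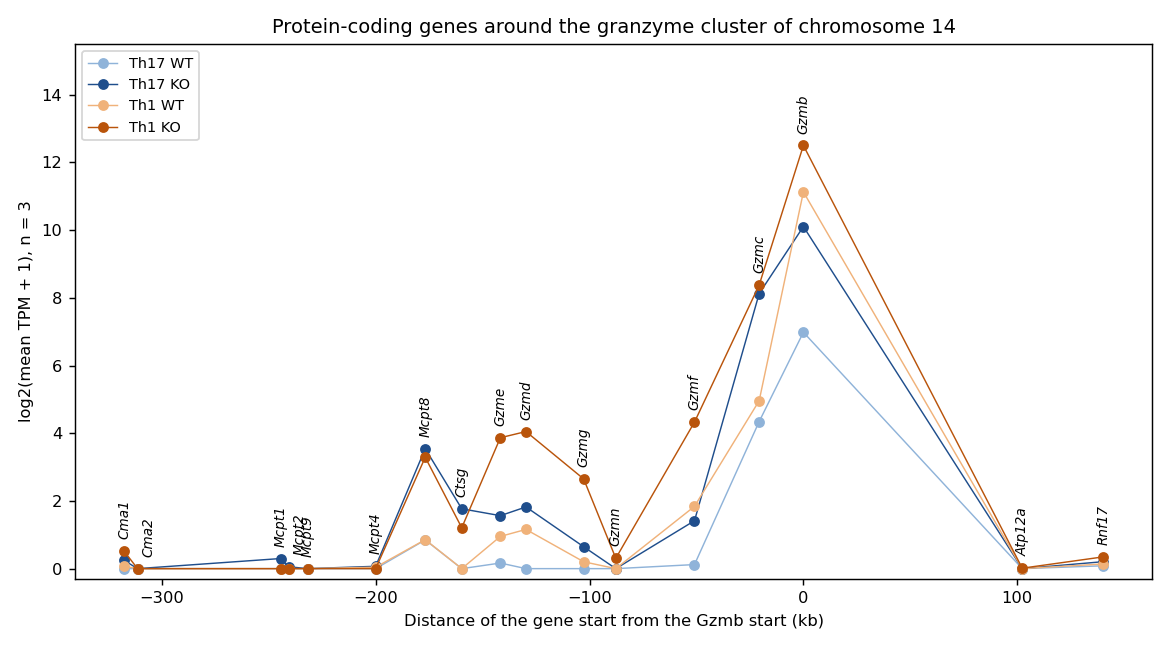
Mean level of the protein-coding genes around Gzmb, as log2(mean TPM + 1) over 3 libraries per group, against the distance of each gene start from that of Gzmb in kb; lines only join the genes. Gzmb and Gzmc carried most of the signal. Mcpt8 and Ctsg, 177 and 160 kb away, were higher in both GLUT3-deficient groups than in wild type.

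Inhibitors of granzymes inside the cell were followed as a list of 5 serpins. In Th17 cells 1 of 4 tested rose and 1 fell, with a median log2 difference of 0.39 against 0.04 over all genes. In Th1 cells 3 of 5 rose and 1 fell, with 0.49 against 0.03. Over all tested genes, 4.6% were called higher and 2.7% lower in Th17, and 17.6% and 13.7% in Th1 cells. Serpinb9, the inhibitor of granzyme B, rose from 2.84 ± 0.287 to 12.9 ± 5.96 TPM in Th17 (limma, adjusted p = 0.0291) and from 22.3 ± 6.57 to 71.6 ± 5.12 TPM in Th1 cells (adjusted p = 0.000805). Serpinb9b, a close relative, rose from 5.50 ± 2.97 to 22.7 ± 9.35 TPM in Th1 cells (adjusted p = 0.00486). Serpinb1a, an inhibitor of neutrophil proteases, fell from 77.4 ± 17.9 to 10.3 ± 1.27 TPM in Th17 and from 29.0 ± 7.93 to 7.86 ± 1.77 TPM in Th1 cells (adjusted p of 0.00222 and 0.000913). Serpinb6a rose in Th1 cells (0.49 ± 0.15, adjusted p = 0.0364) and Serpinb6b was called in neither lineage.

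Genes that store, process and sort granule proteins changed in both directions. Of 12 tested in Th17 cells limma called 0 higher (4 at an unadjusted p under 0.05, 0 with voom) and 2 lower. The median of these 12 was 0.56. Of 11 tested in Th1 cells 6 rose and 2 fell, with a median of 0.48. Shares over all tested genes were 4.6% higher and 2.7% lower in Th17, and 17.6% and 13.7% in Th1 cells. Ctsw, a cathepsin of cytotoxic cells, and Ctsl fell in Th17 cells, Ctsw from 116 ± 10.6 to 55.1 ± 8.34 TPM and Ctsl from 12.6 ± 1.94 to 3.58 ± 0.952 TPM (limma, adjusted p of 0.0246 and 0.0206). Srgn, the gene of the proteoglycan serglycin that binds granzymes in the granule, rose from 499 ± 109 to 992 ± 132 TPM in Th1 cells (adjusted p = 0.00369). Gnptab, which builds the mannose 6-phosphate tag of granule proteins, rose by 1.25 and Calr, the gene of calreticulin, by 0.74 in Th1 cells (adjusted p of 0.00074 and 0.0031).

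Of the genes for granule transport and release, 1 of 12 tested rose in Th17 and 2 of 13 in Th1 cells, shares not far from the 4.6% and 17.6% of all tested genes called higher, with medians of 0.32 and 0.38. Limma called 0 lower in either, also at an unadjusted p under 0.05 and with voom. Kif5b, a kinesin heavy chain that moves vesicles along microtubules, rose by 1.18 in Th17 and by 0.98 in Th1 cells (limma, adjusted p of 0.015 and 0.00538). Lyst, a regulator of lysosome size, rose by 0.80 in Th1 cells (adjusted p = 0.00714).

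Killing can also run through secreted and surface ligands. Of 5 such genes, 3 rose in Th17 and 5 in Th1 cells, beside 4.6% and 17.6% of all tested genes. The medians of the 5 were 1.03 and 1.92. Limma called 0 lower, also at an unadjusted p under 0.05 and with voom. Ifng, the gene of interferon gamma, rose from 3.47 ± 1.35 to 82.3 ± 33.0 TPM in Th17 and from 778 ± 317 to 7977 ± 1078 TPM in Th1 cells (limma, adjusted p of 0.00211 and 9.47e-05). Fasl, the ligand of the death receptor Fas, rose from 0.515 ± 0.184 to 3.25 ± 1.28 TPM in Th17 and from 16.2 ± 4.28 to 25.4 ± 1.64 TPM in Th1 cells (adjusted p of 0.0235 and 0.0363). The Fasl call in Th17 cells adds no support, since Fasl passed the filter there only through the GLUT3-deficient libraries. Lta, the gene of lymphotoxin alpha, rose by 1.02 and 2.25 (limma, adjusted p of 0.0224 and 2.23e-05). Tnf and Tnfsf10 rose in Th1 cells (1.92 and 0.57, adjusted p of 0.000643 and 0.0382) and were not called in Th17 cells (0.59 and 1.03, adjusted p of 0.306 and 0.127).

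Transcription factors that regulate cytotoxic genes were followed as a list of 21, of which 20 matched. In Th17 cells 1 of 18 tested rose, near the 4.6% of all tested genes, and in Th1 cells 6 of 19, beside 17.6%, with medians of 0.40 and 0.11. Limma called 0 lower in either, against 2 in each at an unadjusted p under 0.05, and voom called 4 higher and 0 lower in Th17 and 6 and 2 in Th1 cells. Tbx21, the gene of T-bet, was at 2.38, 4.66 and 3.88 TPM in wild-type and 19.2, 81.2 and 10.3 TPM in GLUT3-deficient Th17 libraries and missed the threshold (limma, adjusted p = 0.0714). In Th1 cells its rise from 112 ± 17.9 to 226 ± 25.6 TPM passed (adjusted p = 0.00199). Prdm1, the gene of Blimp-1, and Eomes, a relative of T-bet, rose in Th1 cells by 1.30 and 1.41 (limma, adjusted p of 0.000896 and 0.00141). Eomes, at 0.280 to 0.592 TPM in wild-type Th1 libraries, passed the filter only through the GLUT3-deficient ones. Its call, 1 of the 6, therefore adds no support. Runx3, a driver of cytotoxic genes in CD8 T cells, was called in neither lineage (-0.40 in Th17 and -0.23 in Th1, adjusted p of 0.648 and 0.515).

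GLUT3-deficient Th17 replicate 2 was the highest of its group in Prf1, Gzmb and Nkg7, and also in Tbx21, in Eomes (8.54 TPM against 2.42 and 1.42), in Prdm1 (7.55 against 2.67 and 1.34) and in Cd4 (335 against 79.6 and 68.0). It was not the highest in Gzma, Gzmd, Gzme or Gzmf, and its Gzmc value of 284 TPM lay within 5% of the others. The part of this library's difference in the results was tested only by leaving it out. The filter was then relaxed to 1 TPM in 2 libraries, which keeps Gzmd, Gzme and Gzmf in the test. Without replicate 2, 8 members were called higher in Th17 cells, beside 1293 of 14089 tested genes. It was 7 without replicate 3, beside 427 of 14243 genes, and 5 without replicate 1, beside 188 of 14228. Gzmd, Gzme and Gzmf passed this filter only through the GLUT3-deficient libraries, so their calls add no support. This alternative was added after seeing the data.

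Surface genes of cytotoxic CD4 T cells gave 2 rises among 12 tested in Th17 cells, with a median of 0.95. In Th1 cells 7 of 12 rose and 1 fell, with a median of 0.76. Of all tested genes, 4.6% were called higher in Th17 cells, and 17.6% higher and 13.7% lower in Th1 cells. Il18r1, a chain of the interleukin 18 receptor, rose from 1.57 ± 0.726 to 6.49 ± 0.528 TPM in Th17 and from 13.5 ± 1.02 to 39.6 ± 1.35 TPM in Th1 cells (limma, adjusted p of 0.0202 and 0.000211). Klrg1, a receptor of effector lymphocytes, rose by 1.62 and 1.45 (limma, adjusted p of 0.0325 and 0.00184). With wild-type means of 0.298 and 0.903 TPM, it passed the filter only through the GLUT3-deficient libraries, so its calls add no support. Il18rap, the other chain of the interleukin 18 receptor, rose by 1.27 in Th1 cells (limma, adjusted p = 0.00191).

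Other cells that carry lytic granules were checked by their markers. Alpha beta T cell genes, Cd4 among them, summed to 7199 to 8487 TPM in wild-type and 7220 to 10281 TPM in GLUT3-deficient Th17 libraries. This sum alone does not settle the CD4 T cell label. Cd4 itself averaged 74.1 ± 14.1 and 161 ± 151 TPM in wild-type and GLUT3-deficient Th17 cells. In Th1 cells Cd4 averaged 48.9 ± 4.65 and 76.0 ± 6.70 TPM. In Th1 libraries the sum ran from 6956 to 7895 and from 9477 to 10341 TPM, without overlap. Limma called 5 of the 7 alpha beta T cell genes higher in Th1, beside 17.6% of all tested genes. It called 0 of 7 higher in Th17, beside 4.6% (0 also at an unadjusted p under 0.05 and with voom). The 2 CD8 genes summed to 19.6 to 32.8 TPM in wild-type and 17.0 to 22.3 TPM in GLUT3-deficient Th17 libraries. In Th1 cells their sum went from 20.5 to 26.3 TPM to 12.2 to 13.5 TPM. Both were called lower there, beside 13.7% of all tested genes. Cd8b1 averaged 23.4 and 18.9 TPM in wild-type and GLUT3-deficient Th17 cells, and 21.3 and 12.1 TPM in Th1 cells. Cd8a averaged 1.01 and 1.44 TPM in Th17 and 2.38 and 0.837 TPM in Th1 cells, in wild type and without GLUT3, and in wild type it was called lower in Th17 than in Th1 cells (limma, adjusted p = 0.0462).

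Summed NK cell and gamma delta T cell genes were higher without GLUT3 than in wild type in both lineages, while the gamma delta sums of the lineages overlapped within each genotype. The 9 NK markers summed to 32.5 to 37.0 TPM in wild-type and 77.9 to 94.8 TPM in GLUT3-deficient Th17 libraries. In Th1 libraries they summed to 38.7 to 53.4 and 184 to 275 TPM. Of 5 tested, 2 were called higher in Th17 and 5 in Th1 cells, beside 4.6% and 17.6% of all tested genes. Eomes, among these 5, passed the filter only through the GLUT3-deficient libraries, so its call adds no support. Klrk1, a receptor that activated T cells share, was at 1.96 ± 0.0766 and 11.6 ± 1.63 TPM in Th17 and at 13.9 ± 1.30 and 64.1 ± 5.91 TPM in Th1 cells. Of the 9, Klrb1c and Klra8 were below 1 TPM in all 12 libraries. Ncr1 was below 1 TPM in all wild-type libraries and reached 1 TPM in at least 1 library of each GLUT3-deficient group. Klra4 reached 1 TPM only in GLUT3-deficient Th1 cells.

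The 6 gamma delta markers summed to 17.4 to 20.4 and 166 to 261 TPM in Th17 libraries. In Th1 libraries they summed to 14.8 to 33.6 and 173 to 276 TPM. Of 5 tested, 4 were called higher in Th17 and 5 in Th1 cells, beside 4.6% and 17.6% of all tested genes. Trdv4, among these 5, was below 1 TPM in all wild-type libraries and entered the test only through the GLUT3-deficient ones. Trdc, the delta chain constant gene, was at 4.46 ± 0.365 and 63.9 ± 15.6 TPM in Th17 and at 5.49 ± 2.35 and 55.7 ± 11.6 TPM in Th1 cells. Myeloid markers summed to 12.4 to 14.6 and 44.2 to 64.9 TPM in Th17 and to 10.9 to 14.01 and 25.2 to 46.1 TPM in Th1 libraries. Of those tested, 3 of 5 and 2 of 3 were called higher, beside 4.6% and 17.6% of all tested genes. Tyrobp, called in both, averaged 0.918 TPM in wild-type Th17 libraries and passed the filter there only through the GLUT3-deficient ones. B cell markers summed to 114 to 153 and 131 to 198 TPM and to 88.1 to 112 and 68.4 to 475 TPM. Limma called 1 of 5 higher in Th17, beside 4.6% of all tested genes. It called 0 of 5 higher in Th1, beside 17.6% (2 of 5 at an unadjusted p under 0.05, 0 with voom). The part of these cells in the granzyme results was not tested.

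Each member had its own nearest genes across the 12 libraries. Likeness was measured as Pearson's correlation of log2(TPM + 1) among 8258 genes that average at least 5 TPM, and the 12 points share 4 groups, so such values describe shared group differences. Gzmb was closest to Ly6c2 (0.992), Usp18 (0.986), Ly6c1 (0.979), Ifng (0.973) and Fah (0.966). Gzmc was closest to Gh (0.990), Cfl2 (0.983), Zcchc3 (0.982), Cd69 (0.982) and Ifi204 (0.981). The early activation gene Cd69 averaged 74.5 and 339 TPM in Th17 and 112 and 385 TPM in Th1 cells, in wild type and without GLUT3.

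Gzma was closest to Glrx (0.978), Ifitm1 (0.978), Bbx (0.970), Ifi204 (0.966) and Isg20 (0.965), so it shared Ifi204 with Gzmc. Prf1 was closest to Hlx (0.988), Xdh (0.969), Dcun1d3 (0.968), Sh3bp2 (0.964) and Gbp4 (0.964). Hlx, a homeobox factor of Th1 cells, averaged 0.717 and 15.8 TPM in Th17 and 10.1 and 38.6 TPM in Th1 cells. Nkg7 was closest to Casp4 (0.968), Ms4a4c (0.959), Fasl (0.956), Fah (0.955) and Ms4a6d (0.950). Among the members themselves Gzmd and Gzme were closest (0.980), and Gzmc correlated with Gzma at 0.952 but with Gzmb at 0.647 and with Nkg7 at 0.381.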

How the data were processed

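The authors deposited 1 table of TPM per lineage with 45703 genes and combined exon lengths. No header or label states the unit in full, and it was taken from the values, since every library sums to 1000000. The submitters' processing notes name cutadapt, STAR 2.7.2b, featureCounts 1.6.4 and the build GRCm38.p6, without their roles. Per the labels' protocols, cDNA was made with SMART-Seq v4 and Nextera XT and sequenced as single reads of 75 nt, which do not mark strand. TPM times exon length came out as whole reads within 0.02 for 100.0% of values, 16596283 to 28496606 reads per library. For an exon length of 1 kb, 3 reads correspond to 0.19 to 0.44 TPM, a limit that includes counting error alone.

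Groups and replicate numbers came from the titles. Limma 3.58.1 (R 4.3.3, two-sided, with a trend of variance on level) was fitted to log2(TPM + 1) for genes that reached 1 TPM in 3 or more libraries, with Benjamini-Hochberg adjustment at 0.05. Fold changes on that scale understate low genes. Genotypes were compared on the 6 libraries of a lineage, and the interaction and lineage differences in a model of 4 group means over 12 libraries. Alternatives were other pseudocounts, no filter, median-of-ratios scaling, voom on recovered reads, the replicate block, all 12 libraries and leaving out each library. The steps were tested on simulated data.

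The named genes are the 9 members, the 3 genes per list with the smallest adjusted p in each genotype comparison, each gene of lists of 5 or fewer, and the 5 genes most like Gzma, Gzmb, Gzmc, Prf1 and Nkg7. Members, lists and rules were chosen with earlier results of these data known. Further genes, such as Ctsg, Runx3 and Tbx21 in Th17 cells, were named after their values were seen. A gene that the rule names in the list of regulators is not reported here. Deviations from group means correlated between same-numbered libraries at 0.14, 0.41 and 0.23 for the Th17 genotypes. For the wild-type lineages they correlated at 0.72, 0.26 and 0.53, so in both comparisons the numbers may pair the libraries. Slc2a3 also fell from replicate 1 to replicate 3 in both wild-type lineages. It was at 379, 109 and 44.6 TPM in Th17 and 398, 95.6 and 64.7 TPM in Th1 libraries. The titles state no pairing. Printed values are from fits without the block unless it is named. Promoters are from RefSeq, GRCm38.p6, and matched all 9 members.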

Additional observations from a re-analysis of the deposited data

Results flagged for a closer look

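The response of Nkg7 to GLUT3 loss differed between lineages. Its effect in Th17 minus that in Th1 was 3.08 on the log2 scale (limma interaction, adjusted p = 0.00103). Every GLUT3-deficient Th17 library was above every wild-type one, as for 18.5% of tested genes. Every GLUT3-deficient Th1 library was below every wild-type one, as for 20.8% of tested genes. The Th1 difference of -0.44 missed the threshold (limma, adjusted p = 0.0572).

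The response of Gzmb also differed, by 1.78 (limma interaction, adjusted p = 0.0346), with a rise in both lineages. The adjusted p ranged from 0.0185 to 0.119 over the alternatives.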

How the results depend on the processing

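Of 710 values of single members under the alternatives, 649 kept their direction and their side of the threshold, 43 lost a call, 12 gained one and 6 reversed. Without the filter, with the replicate block and with all 12 libraries the log2 difference was the same by design. There only the side of the threshold could change. The same held for a lineage difference when a library of the other genotype was left out. In the interaction, Gzmd reversed to 1.01 with a pseudocount of 0.1 and to 2.04 with voom, and Gzmf to 0.68 and 1.35. Without single replicates, Gzma between the GLUT3-deficient lineages ranged from -0.37 to 0.046. The causes were not tested.

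In Th17 cells, 8 members were called higher, and 4 to 6 with a library left out. Without a GLUT3-deficient library Gzmd, Gzme and Gzmf fell below the filter. With the filter relaxed 5 members were called without replicate 1, beside 188 of 14228 tested genes called higher. In Th1 cells, 0 were called lower, 1 (Nkg7) with voom and 1 (Nkg7) with the replicate block, and 0 to 2 with a library left out. In the interaction, 2 were called in the direction of Th17, 1 each with a pseudocount of 0.1, no filter or median-of-ratios scaling, and 1 to 2 with a library left out. In the other direction 0 were called, and 3 with a pseudocount of 5. Between wild-type lineages, 5 were called lower, 3 with a pseudocount of 5 and 3 to 5 with a library left out. The replicate block also ended the Gzmd call there (adjusted p = 0.0575) and changed no other call of a member. Same-numbered libraries of the Th1 genotypes correlated at 0.16, 0.21 and -0.07 and of the GLUT3-deficient lineages at 0.22, -0.04 and -0.19. These values do not decide whether the numbers pair those libraries. Mcpt8 and Ctsg were highest in replicate 2 of both GLUT3-deficient groups.

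Over all genes, GLUT3 loss in Th17 called 1009, 2933 with all 12 libraries in 1 model and 109 (without GLUT3-deficient replicate 1) to 2158 (without replicate 2) with a library left out. In Th1 it called 4220, 2568 with all 12 libraries and 2594 to 4587 with a library left out. The interaction called 93, 44 with a pseudocount of 0.1 and 21 (without GLUT3-deficient Th1 replicate 2) to 171 (without GLUT3-deficient Th17 replicate 2). The wild-type lineages gave 529 calls, or 309 (without wild-type Th17 replicate 2) to 1582 (without GLUT3-deficient Th17 replicate 2), and the GLUT3-deficient ones 861, or 449 (without GLUT3-deficient Th1 replicate 1) to 1219. With voom on recovered reads the Th17 and Th1 comparisons called 1311 and 4512. Depth limits Gzmd, Gzme, Gzmf and Gzmk in Th17 cells, where wild-type libraries held 0 to 8 reads of each.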
